A study of Mus musculus with 12 samples.

Results

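Nfatc1, Nfatc2, Nfatc3, Stim1, Stim2, Orai1, Orai2, Ppp3ca, Ppp3cb and Itpkb belong to calcium signalling from the T cell receptor to the NFAT transcription factors. These 10 genes were chosen by name, from the 21900 protein-coding genes of the RefSeq table for GRCm38.p6, the build also called mm10. The choice was made with earlier results of these data known. The 10 genes lie on 8 chromosomes. Each was described by the H3K79me2 peaks that share at least 1 base with its gene interval. H3K79me2, the dimethyl mark on lysine 79 of histone H3, had been measured by chromatin immunoprecipitation and sequencing (ChIP-seq) with an antibody against the mark.

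The mark was compared between CD8 T cells grown with EPZ-5676, with SGC-0946 or with the vehicle, 0.1% DMSO. EPZ-5676, also called pinometostat, and SGC-0946 both inhibit the methyltransferase DOT1L by competing with its methyl donor. The labels give 10 mM for each compound, a doubtful unit, since such compounds are used on cells at micromolar doses. All cells came from male mice of the strain CreERT2;DOT1L-flox;OT-I with the genotype wt;wt;het. Read in the order of the strain name, they carried neither the Cre nor the floxed Dot1l allele, and 1 copy of OT-I, a transgenic receptor for an ovalbumin peptide. The age of the mice is not given in the sources used here. The cells were activated through CD3 and CD28 on the day of isolation, treated every second day and collected on day 8. Chromatin of yeast whose histone H3 bears an HA tag was spiked in ahead of the immunoprecipitation. There were 12 libraries, 6 immunoprecipitates and 6 inputs, with 2 biological replicates per treatment. The deposited peaks come as 3 lists, 1 for each treatment, so no value below has a spread between replicates, and no difference between treatments could be tested. Depth is unknown from these lists, and a gene without a peak is a gene in which none was called. In a bulk sample, fewer marked cells and less of the mark per cell cannot be told apart.

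The EPZ list held 4443 peaks, the SGC list 55 and the DMSO list 12578. Median widths were 2.096 kb, 0.951 kb and 2.42 kb in that order. The cells' label was set against marker genes. All 7 T cell markers and both CD8 genes, Cd8a and Cd8b1, had an EPZ peak and a DMSO peak. None of the 4 CD4 T cell, 4 NK cell, 7 myeloid and 6 non-haematopoietic markers had a peak in any list. Of 6 B cell markers Cd79a had a DMSO peak over 0.254 kb, and of 4 dendritic cell markers Zbtb46 had peaks over 1.31 kb in the EPZ list and 12.51 kb in the DMSO list.

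In T cells, the receptor activates phospholipase C, whose product IP3 opens calcium channels of the endoplasmic reticulum. STIM proteins sense the emptied store and open the ORAI channels of the plasma membrane. The calcium that enters activates calcineurin, a phosphatase with a catalytic subunit encoded by Ppp3ca, Ppp3cb or Ppp3cc. Calcineurin removes phosphates from NFAT factors, which then enter the nucleus. Itpkb, a kinase, turns IP3 into IP4. H3K79me2 is found on transcribed genes, mostly from near the start of transcription into the first part of the gene.

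The 300-base windows around annotated start sites were set against the called peaks. They run from 250 bases before a start to 50 bases from it, come from RefSeq on GRCm38.p6, and were found for 8 of the 10 genes, with 10 start sites in all. Nfatc1 and Ppp3ca are not among them. Capitals mark bases under a DMSO peak. No base of these windows lay under an EPZ or SGC peak. The Nfatc2 pair and Orai2 are shown because they hold the 2 start sites under a DMSO peak and the first Nfatc2 start, which had none. Orai1 is shown as the channel gene without an EPZ peak. Itpkb is shown because its CpG-poor start preceded the widest of the 59 DMSO peaks in these genes.
Nfatc2, first start, chr2:168601608-168601907, minus strand: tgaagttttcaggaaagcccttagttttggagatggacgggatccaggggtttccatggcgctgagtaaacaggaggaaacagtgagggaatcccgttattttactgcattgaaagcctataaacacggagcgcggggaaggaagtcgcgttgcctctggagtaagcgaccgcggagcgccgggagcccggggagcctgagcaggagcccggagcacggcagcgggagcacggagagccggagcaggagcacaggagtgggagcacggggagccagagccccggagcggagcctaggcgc
Nfatc2, later start, chr2:168590316-168590615, minus strand: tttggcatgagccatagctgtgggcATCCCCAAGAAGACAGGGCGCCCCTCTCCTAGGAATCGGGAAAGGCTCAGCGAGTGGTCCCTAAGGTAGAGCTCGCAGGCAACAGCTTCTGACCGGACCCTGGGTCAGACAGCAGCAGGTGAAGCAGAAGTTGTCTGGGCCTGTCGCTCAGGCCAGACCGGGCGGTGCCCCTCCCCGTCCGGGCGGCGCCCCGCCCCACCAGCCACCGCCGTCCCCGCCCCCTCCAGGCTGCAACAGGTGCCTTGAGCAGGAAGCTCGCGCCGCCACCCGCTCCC
Orai2, chr5:136170607-136170906, minus strand: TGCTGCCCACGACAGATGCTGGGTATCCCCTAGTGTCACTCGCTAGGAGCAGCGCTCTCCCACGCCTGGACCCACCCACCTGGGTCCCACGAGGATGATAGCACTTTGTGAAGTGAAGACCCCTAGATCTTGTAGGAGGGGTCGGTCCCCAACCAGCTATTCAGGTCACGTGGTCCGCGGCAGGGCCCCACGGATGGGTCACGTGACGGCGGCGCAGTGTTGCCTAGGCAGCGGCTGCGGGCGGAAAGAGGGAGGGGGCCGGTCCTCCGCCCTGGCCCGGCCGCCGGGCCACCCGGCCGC
Orai1, chr5:123014824-123015123, plus strand: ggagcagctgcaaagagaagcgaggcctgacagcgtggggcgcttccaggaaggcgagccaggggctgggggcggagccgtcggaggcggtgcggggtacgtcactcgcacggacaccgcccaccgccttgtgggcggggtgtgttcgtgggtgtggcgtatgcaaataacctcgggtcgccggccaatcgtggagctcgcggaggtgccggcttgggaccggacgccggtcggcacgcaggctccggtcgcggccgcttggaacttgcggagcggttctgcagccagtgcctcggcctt
Itpkb, chr1:180330226-180330525, plus strand: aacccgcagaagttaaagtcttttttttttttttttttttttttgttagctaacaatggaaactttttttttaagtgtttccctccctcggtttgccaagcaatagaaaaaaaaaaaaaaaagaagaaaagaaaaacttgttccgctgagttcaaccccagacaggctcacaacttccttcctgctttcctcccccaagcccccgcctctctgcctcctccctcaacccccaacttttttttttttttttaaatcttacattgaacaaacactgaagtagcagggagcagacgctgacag

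EPZ peaks began farther into the gene than DMSO peaks at every start site that had both downstream. Every EPZ-covered base in these genes was also under a DMSO peak, so an EPZ peak could not begin before the DMSO peak. The order is therefore fixed by that nesting, and only the distances are informative. The first EPZ-covered base lay 130 bases after the later Nfatc2 start, 234 after the Orai2 start, 348 after that of Stim1, and 369 after the later Nfatc3 start. It lay 512 bases after the start in Ppp3cb, 871 in Itpkb and 1770 in Stim2. A longer gap before an EPZ peak is a property of the called interval. Whether the mark itself was redistributed was not tested.

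The later Nfatc2 window had 275 of its 300 bases under a DMSO peak, and the Orai2 window all 300. At the other 8 start sites the first DMSO-covered base lay downstream of the start. The distance was 114 bases in Stim1, 354 in Itpkb, 388 in Orai1, 487 in Ppp3cb and 556 in Stim2. Nfatc3 has 2 annotated starts, and the same DMSO peak began 940 bases after the first and 168 bases after the later one. Among the 7842 start sites of protein-coding genes with a DMSO peak, 9.59% lay under an EPZ peak and 41% under a DMSO peak. For the 10 start sites of these genes the counts were 0 and 2.

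**Figure D1:**
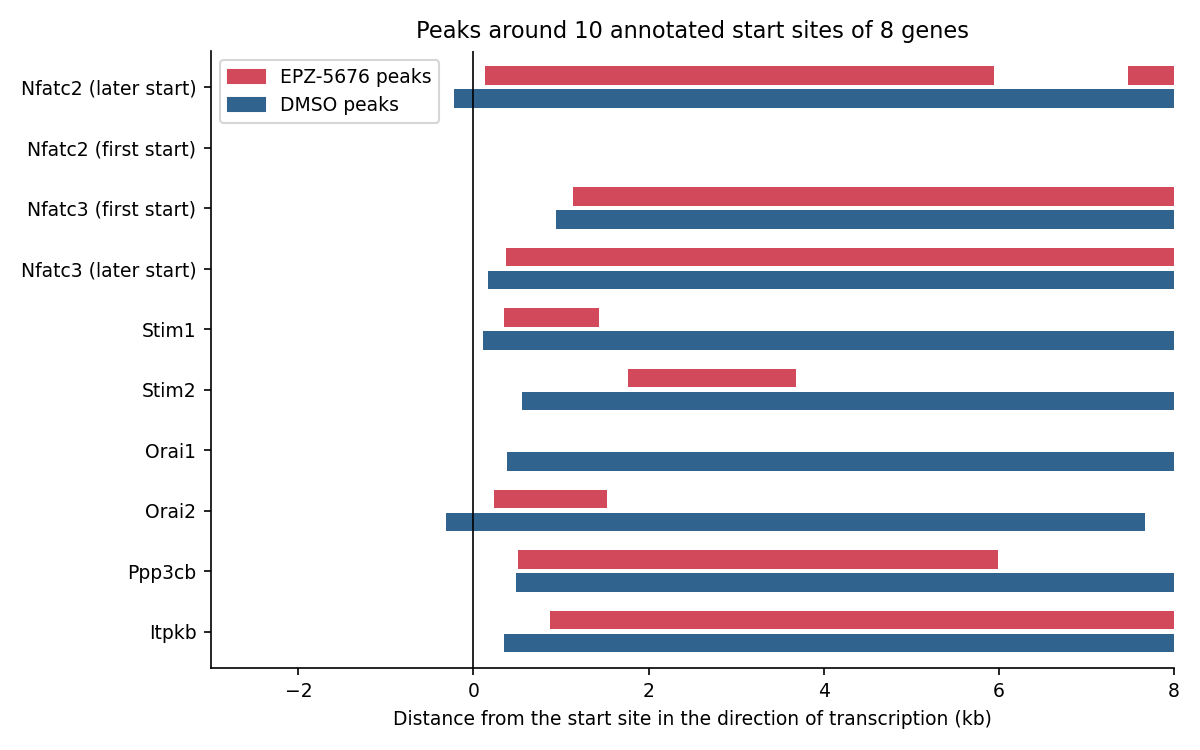
Peaks around 10 annotated start sites of 8 genes. The horizontal axis is the distance from the start site in the direction of transcription in kb, with EPZ-5676 peaks above and DMSO peaks below for each site; 2 sites, the later Nfatc2 start and Orai2, lie under a DMSO peak, none lies under an EPZ peak, and no peak lies within the plotted range of the first Nfatc2 start.

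The windows were CpG-rich in most cases. Counting CG pairs on the printed strand, the 10 windows had a median of 23.5, against 22 in windows of DMSO-marked genes and 7 over all 32851 windows of the table. The count was 39 in Stim2, 38 in Stim1 and 36 in Orai1, and it was 5 in Itpkb and 7 at the first Nfatc3 start. The 5-letter core that NFAT factors bind, GGAAA, read on both strands and so also as TTTCC, was present in 6 of the 10 windows, 13 times in all, with 4 copies in Ppp3cb and 3 each in Itpkb and the first Nfatc2 window. It is a short motif, and 61.3% of all windows hold it. The AP-1 site TGAGTCA, or TGACTCA on the other strand, was in 0 of the 10 windows and in 5.2% of all windows, and 0 of 10 is near that share. These are matches of letters and say nothing about binding.

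Of the 10 genes, 9 had an EPZ peak, none had an SGC peak and all 10 had a DMSO peak. Over all protein-coding genes, 15.9% had an EPZ peak, 0.142% an SGC peak and 34.5% a DMSO peak. Because the 10 genes were chosen with earlier results known, these shares stand beside the counts as description only. Among genes at least as long as the shortest of the 10, Orai1 with 15.38 kb, 41.6% had a DMSO peak. Of the protein-coding genes with a DMSO peak, 46.1% also had an EPZ peak. The gene without an EPZ peak was Orai1. The nearest SGC peak lay between 4.44 Mb away, from Orai2, and 46.6 Mb away, from Ppp3ca, and no SGC peak was called on the chromosome of Nfatc3. With 55 SGC peaks in the whole list, 0 of 10 is near what all genes show.

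EPZ peaks covered 74.03 kb of the 10 genes in 16 peaks, and DMSO peaks 421.6 kb in 59 peaks. Every base under an EPZ peak in these genes was also under a DMSO peak. In the other direction 17.56% of the DMSO-covered bases were under an EPZ peak, against 26.58% over all protein-coding genes. The median over the 9 genes with an EPZ peak was 15.73%, and over all genes marked in both lists 34.3%. Counting genes without an EPZ peak at 0, the median was 14.77% over the 10 genes and 0% over all genes with a DMSO peak, most of which had no EPZ peak. The share was 0% in Orai1 and ran from 2.575% in Stim1 to 56.75% in Nfatc3 among the 9 genes with an EPZ peak. The genes therefore did not share a level.

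**Figure D2:**
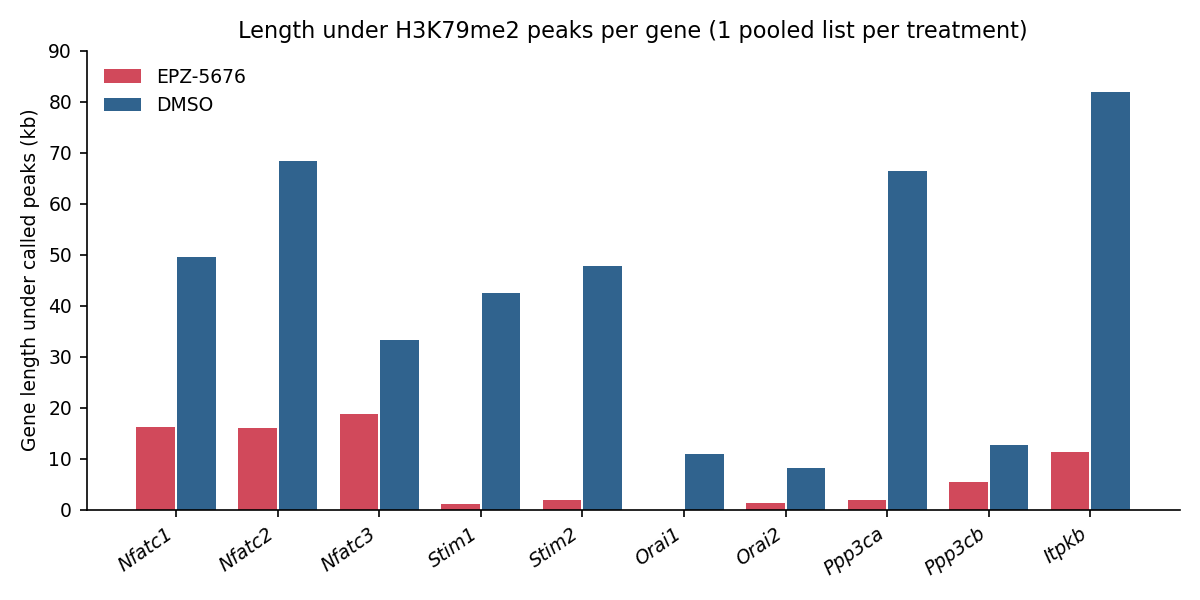
Gene length under called peaks in kb for each of the 10 genes, with the EPZ-5676 bar left of the DMSO bar and 1 pooled list behind each bar, so there are no error bars. EPZ bars reach 18.85 kb in Nfatc3 and DMSO bars 81.9 kb in Itpkb; Orai1 has no EPZ bar.

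The genes are long and were broadly marked in vehicle. Their median length was 100.6 kb, against 23.4 kb for genes with a DMSO peak and 17.15 kb for all protein-coding genes. The median length under DMSO peaks was 45.13 kb per gene, against 4.1 kb for all DMSO-marked genes, and the median share of the gene was 42.68%, against 23.68%. The length under DMSO peaks lay above the 95th percentile of marked genes in 7 of the 10, with Itpkb at percentile 99.5 and Nfatc2 and Ppp3ca at 99.1. Orai2 at percentile 70.5, Orai1 at 77.2 and Ppp3cb at 81.1 were the other 3. Covered length also depends on gene length. By share of the gene covered, Stim1 at percentile 50.7, Ppp3ca at 51.4 and Ppp3cb at 53.9 stood near the middle of marked genes. The rest of the 10 ran from percentile 63.6 in Orai2 to 92.5 in Itpkb. The signal of the 10 genes in the DMSO list was closer to that of other genes. The highest fold enrichment per gene, which is the authors' ratio over background averaged over a peak, had a median of 5.435, against 4.468 for marked genes.

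**Figure D3:**
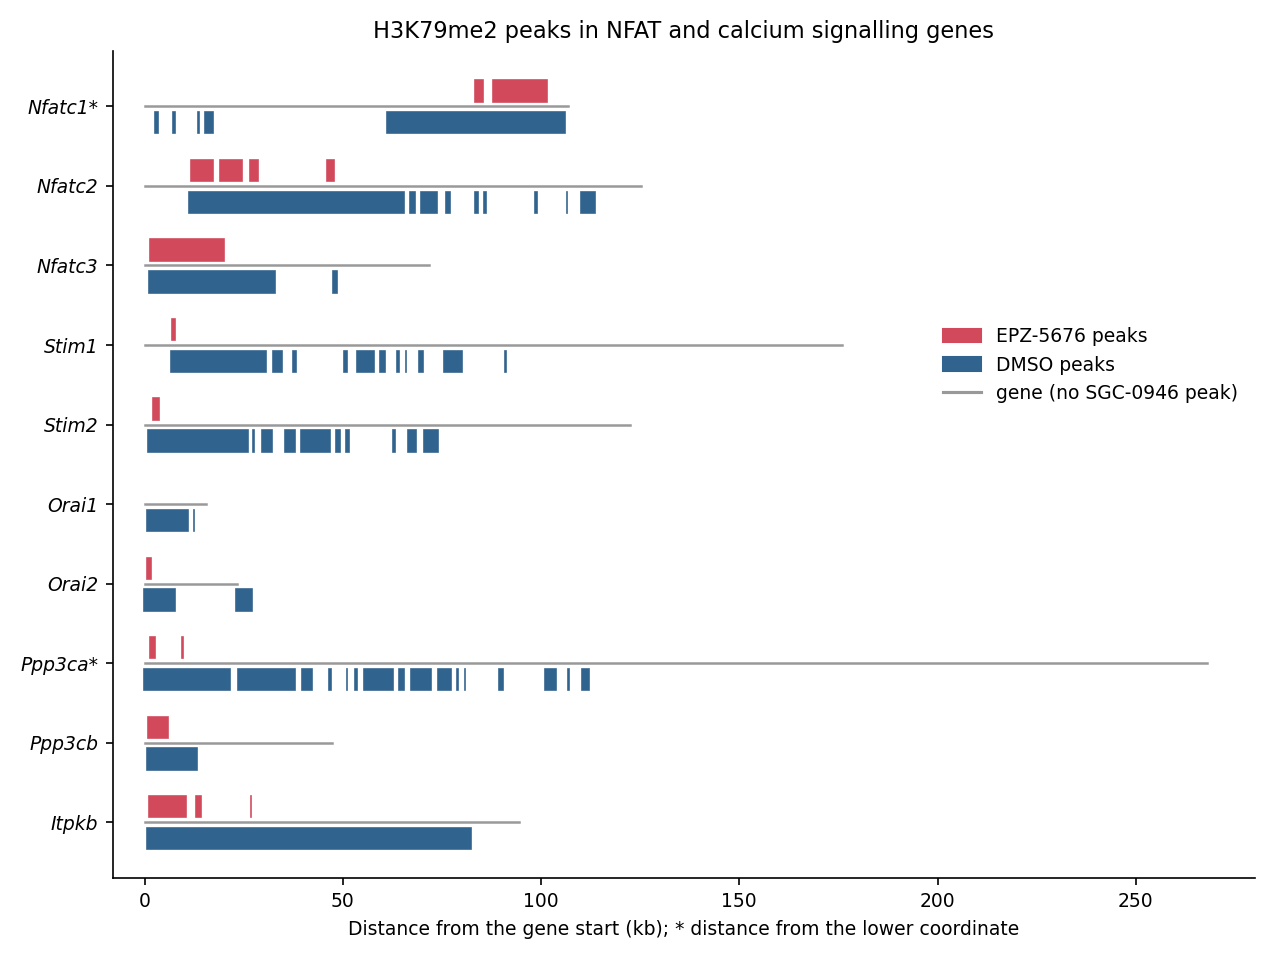
Positions of called peaks along the 10 genes, in kb from the gene start, or from the lower coordinate where marked with an asterisk; EPZ-5676 peaks stand above the gene line and DMSO peaks below it. In each gene with an EPZ peak, the EPZ peaks lie on the DMSO peak of highest fold enrichment, and Stim1, Stim2 and Ppp3ca have 10, 9 and 15 further DMSO peaks, 0.285 to 14.79 kb wide, that no EPZ peak meets.

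In the NFAT factor genes Nfatc1, Nfatc2 and Nfatc3 together, 33.8% of the bases under DMSO peaks were also under EPZ peaks, the highest summed share of the 5 functional classes. Gene by gene, Ppp3cb was above Nfatc1 and Nfatc2. Nfatc3, on chromosome 8 from 106058818 to 106130537, had 1 EPZ peak of 18.85 kb and 2 DMSO peaks covering 33.22 kb. Its EPZ peak was the 120th widest in the EPZ list and its fold enrichment of 9.238 stood at percentile 93.2 there. Its main DMSO peak was 31.88 kb wide with a fold enrichment of 8.905, at percentile 96.9 of the DMSO list. The EPZ peak ended 19.99 kb into the gene and the main DMSO peak 32.82 kb into it. The 56.75% of covered bases that Nfatc3 kept was at percentile 76.2 of genes marked in both lists, the highest of the 10 genes.

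Nfatc2, which encodes an NFAT factor already present in resting T cells, spans chromosome 2 from 168476410 to 168601657. It had 4 EPZ peaks covering 16.0 kb and 9 DMSO peaks covering 68.3 kb. All 4 EPZ peaks lay on a DMSO peak of 54.44 kb, the 69th widest of its list. That peak began 11.07 kb into the gene interval and covers the later start site printed above. The first 11067 bases after the earlier start had no DMSO peak. The EPZ peak nearest the later start was 5.823 kb wide with a fold enrichment of 9.33, at percentile 93.5 of the EPZ list, and the other 3 had fold enrichments from 3.03 to 3.208. In Nfatc2 the high EPZ signal was therefore at the later start, and lower peaks reached 47.87 kb into the gene. DMSO peaks reached 113.5 kb.

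Nfatc1, which encodes the NFAT factor known to be induced on T cell activation, spans chromosome 18 from 80606205 to 80713071. It had 2 EPZ peaks covering 16.18 kb and 5 DMSO peaks covering 49.64 kb. Both EPZ peaks, of 2.307 kb and 13.88 kb, lay on the main DMSO peak of 45.21 kb, which holds 91.08% of the DMSO-covered length. That main peak lies between 60.83 kb and 106 kb from the lower coordinate of the gene. The strand of Nfatc1 was not used here. The other 4 DMSO peaks lay within 17.35 kb of the lower coordinate, had fold enrichments of at most 2.96 and met no EPZ peak. The 32.6% of covered bases under EPZ peaks was at percentile 47.8 of genes marked in both lists, near their middle.

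In the ER calcium sensors Stim1 and Stim2 together, 3.33% of the bases under DMSO peaks were also under EPZ peaks, the lowest summed share of the 5 functional classes, though single genes of other classes, Orai1 and Ppp3ca, were below Stim2. Stim1, on chromosome 7 from 102261514 to 102437319, had 1 EPZ peak of 1.092 kb and 11 DMSO peaks covering 42.41 kb. Stim2, on chromosome 5 from 53998523 to 54121057, had 1 EPZ peak of 1.913 kb and 10 DMSO peaks covering 47.85 kb. Both genes stood near percentile 97 of marked genes for DMSO-covered length, 97 for Stim1 and 97.6 for Stim2. For the share under EPZ peaks they stood at percentile 1.26 and 3.1 of genes marked in both lists, with 2.575% in Stim1 and 3.998% in Stim2. A share under 4% was seen in 3.13% of genes marked in both lists.

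In both sensors the EPZ peak lay in the first kilobases after the start, on the widest DMSO peak of the gene. The start site of Stim1 in the table is 6.305 kb inside its gene interval, and its EPZ peak ran from 6.653 to 7.744 kb. That of Stim2 ran from 1.77 to 3.682 kb. The main DMSO peaks were 24.19 kb in Stim1 and 25.48 kb in Stim2, with fold enrichments of 4.262 and 4.045 in the DMSO list. Behind the main peak, 10 further DMSO peaks in Stim1 reached 91.04 kb and 9 in Stim2 reached 74.02 kb. None of these 19 met an EPZ peak, and their fold enrichments were at most 3.238 in Stim1 and 3.72 in Stim2.

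Orai1, the pore subunit of the calcium release-activated channel, had no EPZ peak. It spans chromosome 5 from 123015074 to 123030452 and had 2 DMSO peaks, of 10.59 kb and 0.313 kb, which cover 70.9% of the gene. Its highest DMSO fold enrichment, 3.365, was the lowest of the 10 genes and at percentile 20 of marked genes. Orai2, which encodes a second channel subunit, spans chromosome 5 from 136147456 to 136170697. It had 1 EPZ peak of 1.297 kb and 2 DMSO peaks covering 8.243 kb of the gene. Its highest DMSO fold enrichment was 5.166, at percentile 63.7 of marked genes. Orai1 thus had the broader cover for its length and the lower enrichment, with 35.47% of Orai2 covered. Of the DMSO-covered bases in Orai2 15.73% were under the EPZ peak. The second DMSO peak of Orai2 lay at the far end of the gene and had 0.529 kb of its 4.354 kb inside it.

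The catalytic subunits of calcineurin differed in length and in the share kept. Ppp3ca, on chromosome 3 from 136669714 to 136937727, had 2 EPZ peaks covering 1.906 kb and 16 DMSO peaks covering 66.37 kb. Ppp3cb, on chromosome 14 from 20499364 to 20546573, had 1 EPZ peak of 5.484 kb and 1 DMSO peak of 12.73 kb. The share of DMSO-covered bases under EPZ peaks was 2.872% in Ppp3ca, at percentile 1.52 of genes marked in both lists, and 43.07% in Ppp3cb, at percentile 60.3. The Ppp3ca cover was spread widely, with 32.62% of it in the peak of highest enrichment and peaks up to 112.1 kb from the lower coordinate of the gene. The fold enrichment of its main DMSO peak was 4.104, against 5.939 for that of Ppp3cb.

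Itpkb, on chromosome 1 from 180330390 to 180424802, had the widest DMSO peak of these genes. Its 3 EPZ peaks of 9.474, 1.525 and 0.307 kb covered 11.31 kb in all, or 11.98% of the gene. Its DMSO peak of 81.9 kb, the 16th widest of the 12578 in its list, covered 86.75% of the gene and holds all 3 EPZ peaks. The DMSO peak also covers the non-coding gene Gm39712. The EPZ peaks began 0.957 kb into the gene and the last ended at 26.88 kb, while the DMSO peak ended at 82.34 kb. Hence 13.8% of the DMSO-covered bases were under EPZ peaks, at percentile 17.3 of genes marked in both lists.

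In order of the share of covered length kept, the genes ran Nfatc3, Ppp3cb, Nfatc1, Nfatc2, Orai2, Itpkb, Stim2, Ppp3ca, Stim1 and Orai1. With 1 list per treatment it is not known which neighbours in this order differ beyond the spread between replicates. The 6 genes with at least 40 kb under DMSO peaks had a median share of 8.9%, while the 250 protein-coding genes with that length had a median of 23.9%, and 94.4% of those 250 had an EPZ peak. Among the 912 genes whose highest DMSO fold enrichment was between 4 and 4.5, as in Stim1, Stim2 and Ppp3ca, 33.2% had an EPZ peak and those had a median share of 11.3%.

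**Figure D4:**
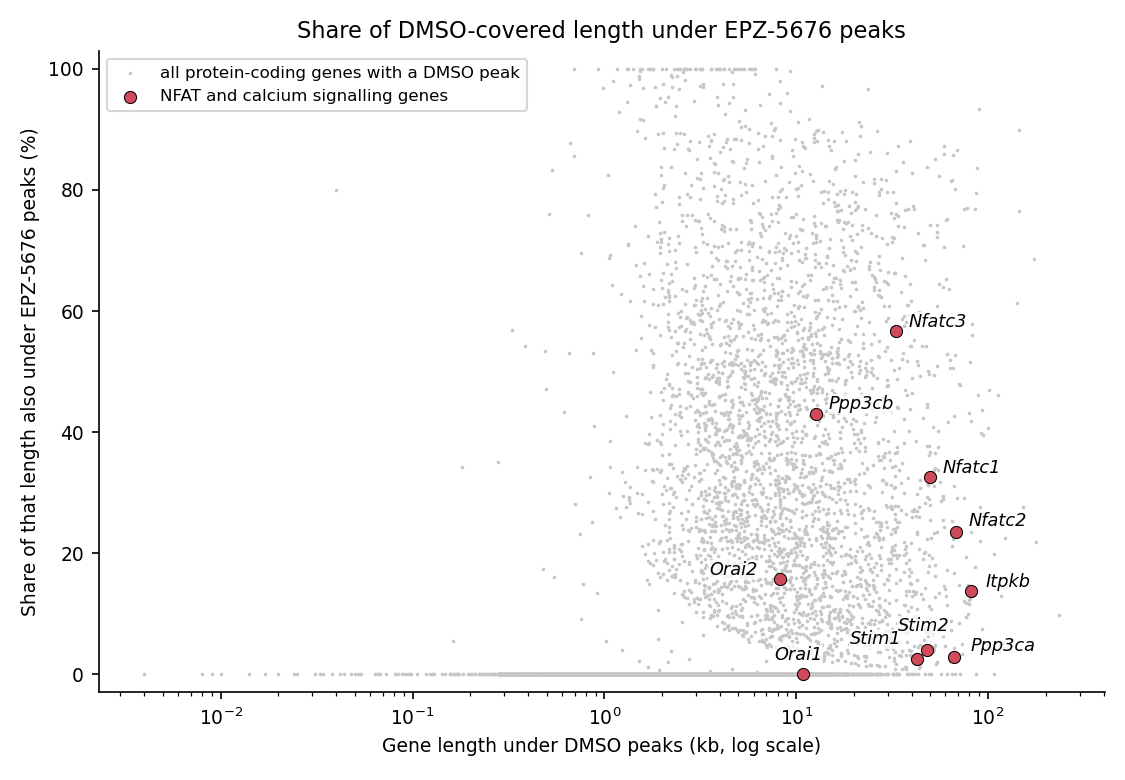
Share of DMSO-covered length that is also under EPZ-5676 peaks, in percent, against the gene length under DMSO peaks in kb on a log axis, for the 10 genes (large points) and all protein-coding genes with a DMSO peak (small points). Nfatc3 at 56.75% and Ppp3cb at 43.07% lie highest of the 10, while Stim1, Stim2, Ppp3ca and Orai1 lie at or below 3.998%.

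Within these genes, the DMSO peaks met by an EPZ peak were those of highest fold enrichment. An EPZ peak overlapped 9 of the 59 DMSO peaks, and all 16 EPZ peaks lay on those 9. Fold enrichment in the DMSO list was 4.045 to 8.905 for the 9 overlapped peaks and 2.594 to 3.936 for the other 50, with no overlap between the ranges. Widths were 7.986 to 81.9 kb in the 9 and 0.285 to 14.79 kb in the 50. The whole DMSO list showed the same split at 4-fold. There, EPZ peaks overlapped 75.8% of DMSO peaks of at least 4-fold and 1.63% of those below, and 26.9% of all. The counts in these genes were 9 of 9 and 0 of 50.

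Several DMSO peaks per gene were common here. In 8 of the 10 genes there were 2 or more DMSO peaks, against 31.4% of marked genes, and in 4 of them (Nfatc2, Stim1, Stim2 and Ppp3ca) 9 or more, against 1.24%. Longer genes had more peaks over the whole list. Of the 768 marked genes of at least 100 kb, 11.6% had 9 or more. Of the 10 genes 5 are that long, and 4 of these 5 had 9 or more. The shares for 2 or more peaks were not matched for length. Of the 59 DMSO peaks, 20 were narrower than 1 kb, and 37 had a −log10 q below 2. In the EPZ list, 4 of the 9 genes had 2 or more peaks, against 17.9% of genes with an EPZ peak. All 7 genes with an EPZ peak and at least 2 DMSO peaks had their EPZ peaks on the DMSO peak of highest enrichment, as had 1210 of the 1312 protein-coding genes of that kind, or 92.2%.

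**Figure D5:**
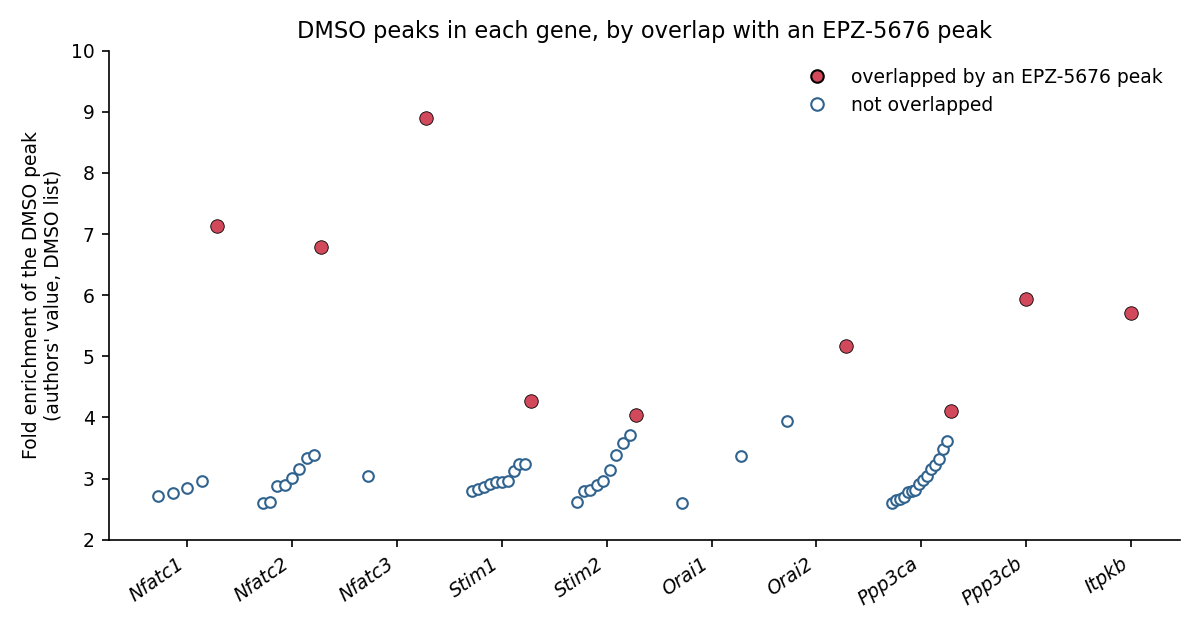
Fold enrichment of each DMSO peak in the 10 genes, as the authors give it in the DMSO list, with peaks overlapped by an EPZ-5676 peak filled and the others open. The 9 filled points lie at 4.045 or above and the 50 open points at 3.936 or below.

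Cover was concentrated before the midpoint of the gene, counted from its start. For EPZ peaks the share of covered bases before the midpoint was 100% in all 7 genes with a known strand and an EPZ peak, and the median of 2831 protein-coding genes was 100% as well, with 85.1% of their covered bases before the midpoint. For DMSO peaks the median was 89.87% in 8 genes, below the median of 100% over 6149 protein-coding genes. Of all DMSO-covered bases in those 6149 genes, 79.8% lay before the midpoint. The lowest were Itpkb with 57.1%, Orai1 with 66.97% and Nfatc2 with 75.48%. DMSO peaks reached 82.34 kb from the start in Itpkb, 12.51 kb in Orai1 and 113.5 kb in Nfatc2.

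No EPZ or DMSO peak in the 10 genes reached another protein-coding gene, so each peak could be given to its gene. Of the 20 nearest protein-coding genes on either side, 4 had an EPZ peak, none an SGC peak and 10 a DMSO peak. Over all protein-coding genes the shares were 15.9%, 0.142% and 34.5%, so the EPZ and SGC counts were near those of all genes. Rhog, 11.39 kb from Stim1, had 6.666 kb under EPZ peaks and 11 kb under a DMSO peak, its whole length. Rrm1, a ribonucleotide reductase gene 4.375 kb from the other end of Stim1, had 3.246 kb under an EPZ peak and 7.926 kb under DMSO peaks. Each of the EPZ-covered lengths beside Stim1 was above the 1.092 kb within it. Alkbh4, beside Orai2, had 1.018 kb and 4.583 kb, and Ctdp1, beside Nfatc1, had 1.593 kb and 9.335 kb, in the EPZ and DMSO lists. Atp9b, Dus2, Pla2g15, Kdm2b, Prkrip1 and Usp54 had no EPZ peak and DMSO peaks over 0.793 to 3.738 kb. No peak was called in Kcng1, Atp9a, Tbc1d19, Pcdh7, Morn3, Bank1, Emcn, Mss51, Psen2 and Stum, nor in Esrp2, which overlaps the Nfatc3 interval.

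The protein-coding gene most like each of the 10 was sought among genes of a length within 2-fold, by the distance in percentage points over the shares of the gene under EPZ, SGC and DMSO peaks. Orai2 lay closest to Mfap3 at 0.18, Stim1 to Usp47 at 0.23, Ppp3ca to Zmiz1 at 0.394 and Ppp3cb to Top2b at 0.562. Orai1 lay closest to Gm20604 at 0.567, Stim2 to Shoc2 at 0.677 and Nfatc3 to Nsd2 at 0.775. Nfatc2 and Irf2 were 1.07 apart, and Nfatc1 and Ppp1r12a 1.41. Itpkb had no near neighbour by this measure, since the closest, Ubl3, was 4.99 away. Between 1470 and 7885 genes were compared for each, and the likeness is over 3 values from 3 lists.

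The wider calcium pathway was described from lists of 72 further genes. Of these, 24 had an EPZ peak, none an SGC peak and 43 a DMSO peak, beside 15.9%, 0.142% and 34.5% of all protein-coding genes. Of their DMSO-covered bases 30.9% were also under EPZ peaks, beside 26.58% over all protein-coding genes. Plcg1, Inpp5d, the IP3 receptor genes, Saraf, Kcna3, Kcnn4, Trpm7, Orai3, Stimate, Cracr2a, Calm2, Calm3, Camk4, Ppp3cc, Ppp3r1, Irf4 and Tnfrsf9 were chosen for naming after their values were seen. Among 8 genes listed under IP3 generation and turnover, not all of which act on IP3 itself, 3 had an EPZ peak and 5 a DMSO peak. Plcg2, Itpka and Inpp5a had none. Plcg1, the phospholipase downstream of the T cell receptor, had 9.291 kb under EPZ peaks and 17.83 kb under a DMSO peak. Inpp5d, which encodes the phosphatase SHIP1, had 6.089 kb and 27.02 kb. Itpr1, Itpr2 and Itpr3, which encode the calcium channels that IP3 opens, had no EPZ peak and 0.66, 5.435 and 12.81 kb under DMSO peaks, and the ryanodine receptor genes Ryr1, Ryr2 and Ryr3 had no peak.

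Of 10 partners of store-operated calcium entry, 4 had an EPZ peak and 7 a DMSO peak, and Cracr2b, Tmem178 and Trpm4 had none. Saraf, a regulator that inactivates STIM, kept 79.69% of its DMSO-covered bases under an EPZ peak, and the potassium channel genes Kcna3 and Kcnn4, whose channels sustain calcium entry, kept 83.74% and 52.94%. Trpm7 kept 10.21%, and Orai3, Stimate and Cracr2a had no EPZ peak and DMSO peaks over 0.538, 0.479 and 12.52 kb. Of 13 genes for calcium pumps and mitochondrial uptake, 3 had an EPZ peak and 7 a DMSO peak. The plasma membrane pump gene Atp2b1 had 25.77 kb and 61.85 kb in the EPZ and DMSO lists, Atp2a2 0.514 kb and 9.491 kb, and Atp2a3 1.335 kb and 8.095 kb. Atp2b4, Smdt1 and Letm1 had no EPZ peak and DMSO peaks over 1.897, 2.231 and 3.037 kb. Of 12 calmodulin and calmodulin kinase genes, 5 had an EPZ peak and 8 a DMSO peak, and Camk1, Camk2a, Camkk1 and Camkk2 had none. Calm2 and Calm3, which encode calmodulin, kept 81.53% and 39.71%. The kinase gene Camk4 had no EPZ peak and 10 DMSO peaks over 40.27 kb of its 260.8 kb.

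Of 10 other calcineurin subunit and inhibitor genes, 3 had an EPZ peak and 6 a DMSO peak, and Ppp3r2, Rcan1, Rcan2 and Akap5 had none. The remaining catalytic subunit gene, Ppp3cc, had 19.91 kb under an EPZ peak and 29.95 kb under DMSO peaks, so that 66.49% was kept. The regulatory subunit gene Ppp3r1 had 3.265 kb and 23.04 kb, with 14.17% kept. The 3 catalytic subunit genes therefore ran Ppp3cc, Ppp3cb, Ppp3ca by share kept. Of 13 other NFAT factors, NFAT kinases and binding partners, 6 had an EPZ peak and 7 a DMSO peak. The NFAT factor genes Nfatc4 and Nfat5 had no peak in any list, nor had Csnk1e, Homer2, Homer3 and Lrrk2. Among kinases that rephosphorylate NFAT, Dyrk1a had 36.71 kb and 91.94 kb in the EPZ and DMSO lists, Csnk1a1 16.18 kb and 20.93 kb, Gsk3b 2.566 kb and 52.88 kb, Dyrk2 6.393 kb and 12.07 kb, and Gsk3a 0.659 kb and 5.422 kb. Nfatc2ip had no EPZ peak and a DMSO peak over 0.926 kb.

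A list of 20 genes known to respond to NFAT in T cells was described apart. Of these, 6 had an EPZ peak, none an SGC peak and 8 a DMSO peak, beside 15.9%, 0.142% and 34.5% of all protein-coding genes, so the DMSO count was near that of all genes. Of the DMSO-covered bases in the list 66.3% were also under EPZ peaks, beside 26.58% over all protein-coding genes. That share is weighted by covered length, and only the 8 genes with a DMSO peak enter it. The interleukin-2 receptor gene Il2ra weighed most, with 24.35 kb and 32.31 kb in the EPZ and DMSO lists, the longest cover of the list in both. Tnf and the death ligand gene Fasl, both short, had an EPZ peak over 2.641 kb and 7.804 kb, and a DMSO peak over 2.641 kb and 7.805 kb. Ctla4 had 4.15 kb and 6.685 kb. The share of DMSO-covered bases under EPZ peaks was 100% in Tnf, 99.99% in Fasl, 75.36% in Il2ra, 62.08% in Ctla4, 38.97% in Irf4 and 24.38% in Tnfrsf9, so the last 2 lay within the range of the 10 genes. Tox and Nr4a2 had no EPZ peak and DMSO peaks over 0.733 and 2.898 kb, and the 12 genes of the list without a DMSO peak had no EPZ or SGC peak either. These 12 are Il2, Il4, Ifng, Csf2, Egr2, Egr3, Nr4a1, Nr4a3, Rcan1, Cd40lg, Pdcd1 and Havcr2.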

How the data were processed

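Chromatin from CD8 T cells of each treatment was immunoprecipitated for H3K79me2 and sequenced beside input. The tools named, per the submitters' processing notes, are MACS2 2.2.7.1, Picard and BWA 0.7.17-r1188, with mouse build mm10 (GRCm38) and yeast build sacCer3. Not given in the sources used here are how replicates were combined, whether inputs or yeast reads entered the scaling, and the thresholds for calling. A list was therefore treated as pooled across the replicates. The deposited fold enrichment is the authors' ratio over background, averaged over a peak, and was used only within its own list. The deposited −log10 q, also averaged by the authors over each peak, served as a filter in 1 alternative. The deposited score, which the authors' caller derives from −log10 q, was checked against it and not used further.

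Depth per library is unknown from the lists, so no interval that reflects depth could be given. Low depth would leave weak peaks uncalled and shorten broad ones. Peaks were set against RefSeq gene intervals of GRCm38.p6 (27025 genes also have start windows there, which gave strand and start sites) with Python 3.11.15, pandas 2.3.3 and numpy 2.4.6, and figures were drawn with matplotlib 3.10.9. Overlap calculations were tested on simulated data and checked against bedtools 2.31.1. A gene was called marked with at least 1 base of a peak. Percentiles rank a gene among DMSO-marked protein-coding genes, or among those marked in both lists. No test was run, because each treatment has 1 list.

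The genes and the lists were chosen with earlier results of these data known. All 10 genes are named. Of each wider list, genes without a DMSO peak are named where they number 5 or fewer, otherwise the 3 with the most and the 3 with the fewest DMSO-covered bases. In the lists of other NFAT factors and of genes responding to NFAT, unmarked genes were named as well, after their values were seen. Nearest neighbours and the 1 most alike gene of each are named. Alternatives were stricter peak filters, other gene intervals and overlap rules, and joining of close peaks. Exons and introns were not analysed here.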

Additional observations from a re-analysis of the deposited data

How the results depend on the processing

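No paired analysis was possible because the replicates of a treatment are pooled into 1 peak list, and for the same reason no replicate could be left out. With peaks of −log10 q of at least 5, the genes with an EPZ peak numbered 5 and those with a DMSO peak 6. DMSO peaks then covered 233883 bases, in place of 421574, with 22.88% of them under EPZ peaks, and 5 DMSO peaks were overlapped. Orai2 lost its EPZ peak and kept its DMSO peak, and Stim1, Stim2, Orai1 and Ppp3ca lost all peaks. Over all protein-coding genes, 7.68% had an EPZ peak and 17.3% a DMSO peak at that filter. With a fold enrichment of at least 4, 5 genes had an EPZ peak and 9 a DMSO peak, beside 8.29% and 21.2% of all protein-coding genes. Orai1 lost its DMSO peaks, and Stim1, Stim2, Ppp3ca and Orai2 lost their EPZ peaks and kept a DMSO peak, so that none of their DMSO-covered bases was under an EPZ peak. With 5 kb added to both sides of each gene, 17.35% of the DMSO-covered bases lay under EPZ peaks, in place of 17.56%. When an EPZ peak had to cover at least 50% of a DMSO peak, 1 DMSO peak was overlapped, that of Nfatc3, in place of 9. The other 27 alternative values stayed within 1.5 times the reported count or within the 95% binomial interval of the reported share, and SGC counts were 0 throughout. That interval counts each base as independent, which neighbouring bases are not, so it is only a yardstick and covers no replicate error. Depth is unknown, and its part in these calls was not tested. The EPZ peaks had a −log10 q of 2.634 in Stim1, 1.791 in Stim2, and 1.567 and 1.426 in Ppp3ca, against a lowest value of 1.078 in the EPZ list. The main DMSO peaks of Stim1, Stim2, Orai1 and Ppp3ca had a −log10 q of 4.418, 4.016, 2.551 and 4.258, against a lowest value of 1.005 in the DMSO list.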
